A study of Mus musculus with 3 samples.

Results

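The neuropeptide Y (NPY) and somatostatin systems were described here through 10 genes, found by their symbol in the array annotation among 19504 genes measured. They are 3 ligand genes (Npy, Sst and Cort) and 7 receptor genes (Npy1r, Npy2r, Npy5r, Sstr1, Sstr2, Sstr3 and Sstr4), and each of the 10 had 1 probe set. RNA from the hippocampi of male 11-week-old C57BL/6J mice was pooled within each group, and 1 Affymetrix whole-transcript array was run for each of the 3 pools. The NV pool held 3 mice that were not restrained and received vehicle, which the labels give as PBS. The RS pool held 4 mice restrained 6 h per day for 3 weeks and then given 20 μg of extracellular vesicles (EVs) from the serum of sedentary donors through the cerebral ventricle. The RE pool held 4 mice with the same restraint and the same amount of EVs from donors that had run voluntarily on a wheel. Tissue was taken 3 days after injection. The title of the NV sample speaks of vesicles where its protocol note gives vehicle, and the labels name ventral hippocampus where the methods name hippocampus. No pool combined restraint with vehicle, so restraint and sedentary EVs cannot be told apart in RS against NV. Since each group has 1 array of pooled RNA, no difference could be checked against replicates and no p-value is given. The number of arrays limits the precision.

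NPY and somatostatin are peptides released from dense-core vesicles, in the hippocampus mainly by GABAergic interneurons. Somatostatin marks interneurons that target the distal dendrites of principal cells, and NPY is found in part of these cells and in neurogliaform and ivy cells. Cortistatin, the product of Cort, is a relative of somatostatin that binds the same receptors. All of the receptors couple to inhibitory G proteins, which lower adenylyl cyclase activity and open inwardly rectifying potassium (GIRK) channels, and NPY given into the rodent brain is known to reduce anxiety-like behavior through the Y1 receptor.

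The promoters of the 3 receptor genes that passed 2-fold in the comparisons and of Sst, the ligand gene with the largest difference, are shown because the results turn on these genes. They are the 250 bases before the start of each gene, 5′ to 3′ on the strand of the gene, from RefSeq on GRCm38.p6. Capitals mark the cAMP response element TGACGTCA.
Sst, chr16:23890845-23891094, minus strand: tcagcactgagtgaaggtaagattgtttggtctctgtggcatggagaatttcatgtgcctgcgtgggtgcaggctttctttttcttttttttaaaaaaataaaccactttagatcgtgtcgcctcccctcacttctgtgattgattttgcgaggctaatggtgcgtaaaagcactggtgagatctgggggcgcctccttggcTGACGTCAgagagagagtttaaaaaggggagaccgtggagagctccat
Sstr2, chr11:113619077-113619326, plus strand: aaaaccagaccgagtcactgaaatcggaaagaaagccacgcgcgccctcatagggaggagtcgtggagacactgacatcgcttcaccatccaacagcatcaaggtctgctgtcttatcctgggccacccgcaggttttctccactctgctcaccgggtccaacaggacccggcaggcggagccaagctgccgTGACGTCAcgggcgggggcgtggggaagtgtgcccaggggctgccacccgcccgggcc
Npy1r, chr8:66697172-66697421, plus strand: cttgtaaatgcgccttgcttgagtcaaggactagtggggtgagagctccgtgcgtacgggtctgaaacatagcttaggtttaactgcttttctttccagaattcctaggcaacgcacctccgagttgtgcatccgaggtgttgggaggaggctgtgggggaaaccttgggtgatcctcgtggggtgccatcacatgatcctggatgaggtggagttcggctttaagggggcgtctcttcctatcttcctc
Npy2r, chr3:82548086-82548335, minus strand: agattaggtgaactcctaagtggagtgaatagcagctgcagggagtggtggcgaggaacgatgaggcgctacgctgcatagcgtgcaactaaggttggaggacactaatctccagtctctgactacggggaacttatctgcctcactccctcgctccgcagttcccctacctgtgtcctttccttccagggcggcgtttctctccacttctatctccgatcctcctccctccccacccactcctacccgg
A promoter was found for 9 of the 10 genes. The element TGACGTCA, bound by the activity-dependent factor CREB, was searched on both strands and was present in 2 of them, Sst and Sstr2, starting 48 bases before the start of Sst and 58 bases before that of Sstr2, against 1.55% of 32851 promoters of the same length. Its shorter core TGACG, which lies within it and was also counted on its own, was present in 4 (Sst, Sstr2, Cort and 1 of the promoters of Sstr3), against 17.8%. AGAACA, the core bound by the glucocorticoid receptor, was found on either strand in 3 (Npy5r, Cort and the other promoter of Sstr3), against 16.1%. These matches are descriptions of the letters and not bound sites.

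The log2 signals of the 10 genes were set against a background level of 6.01, below which 95% of the signals of 1450 chemosensory receptor genes (olfactory, vomeronasal, taste) fell. In all 3 arrays, 9 of the 10 genes were above that level. Sstr1 was below it in every array, with 4.34 for NV, 4.92 for RS and 5.06 for RE, so its differences carry little information. Signals of different probe sets are not comparable, and levels were compared only within a gene. A gene is called higher or lower when 2 pools differed by 1 or more on the log2 scale, which is the 2-fold threshold of the study's methods.

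**Figure D1:**
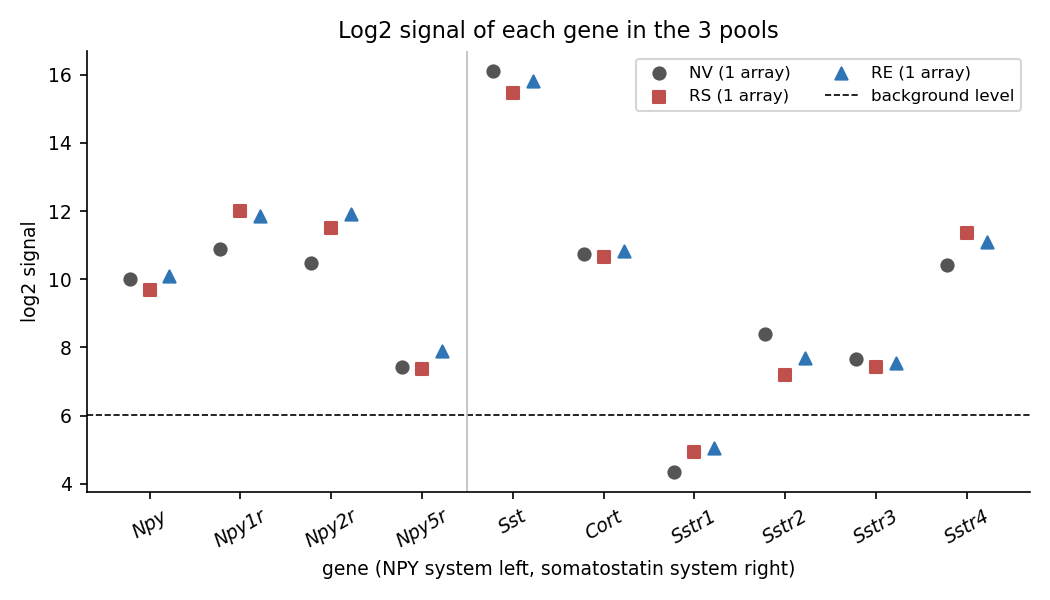
Log2 signal (vertical axis) of the 10 genes (horizontal axis) in the NV, RS and RE pools, 1 array each, with the background level of 6.01 as a dashed line. Npy1r, Npy2r and Sstr4 lie higher in RS and RE than in NV, Sst and Sstr2 lie lower, and Sstr1 lies below the dashed line in all 3 arrays.

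Between RS and NV, 2 NPY receptor genes were higher and 1 somatostatin receptor gene was lower in RS, and all 3 ligand genes had negative differences that stayed below the threshold. Npy1r and Npy2r were higher by 2.15-fold and 2.03-fold, and Sstr2 was lower, with NV at 2.30-fold of RS. That is 3 of the 10 genes, against 7.8% of all genes past the same threshold, or 3.52% higher and 4.29% lower. The median over the 10 genes was -0.08 and that over all genes -0.01. Less RNA per cell and fewer cells of a type cannot be told apart in pooled tissue.

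The log2 signal of Npy, the ligand of the Y receptors, was 10.01 for NV, 9.69 for RS and 10.09 for RE. Its difference between RS and NV was -0.33, and 25.1% of all genes were at least as far below 0. RE stood 0.40 above RS and 0.07 above NV, so that Npy was lowest in RS and nearly level in NV and RE. Npy1r encodes the Y1 receptor, which is mainly postsynaptic. It had 10.90 for NV, 12.00 for RS and 11.87 for RE. The difference of 1.10 between RS and NV was reached or passed by 2.63% of all genes, and by 3.78% of those above the background level. RE differed from RS by only -0.13. Npy1r was thus higher in both restrained pools than in NV, by 1.10 and 0.97.
Npy2r encodes the Y2 receptor, which sits largely on axon terminals and reduces transmitter release, including glutamate release in the hippocampus. It had 10.47 for NV, 11.49 for RS and 11.92 for RE, the widest range of the 10 genes at 1.45. RS differed from NV by 1.02, RE from RS by 0.43 and RE from NV by 1.45. That last difference, 2.73-fold, was reached by 0.723% of all genes and by 1.12% of those above the background level. For the difference of 1.02 these shares were 3.29% and 4.61%. Npy2r was the only one of the 10 with NV, RS and RE in that rising order while above the background level. Npy5r, the gene of the Y5 receptor, had 7.43 for NV, 7.35 for RS and 7.91 for RE. RE exceeded RS by 0.55, the largest difference of the 10 genes in that comparison, at 1.47-fold and below the threshold. Npy5r and Npy1r are neighbouring coding genes on chromosome 8, and their differences between RS and NV were -0.07 and 1.10.
The calls of Npy1r and Npy2r in RS against NV lay close to the threshold. They fell to 0.99 and 0.91 after quantile normalization and to 0.99 and 0.91 after removal of the trend of the difference on mean signal, just short of 2-fold.

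Sst, the somatostatin gene, had 16.12 for NV, 15.45 for RS and 15.82 for RE. Its difference was -0.66 between RS and NV, with NV at 1.58-fold of RS, and 10.7% of all genes were as far below 0. RE differed from RS by 0.37 and from NV by -0.29, so that RE lay between the other pools. These were bright signals, though not the brightest, as 169 to 211 probe sets per array were above 16. Cort had 10.74 for NV, 10.64 for RS and 10.82 for RE, a range of 0.18 that was the narrowest of the 10 genes.
Sstr2, the gene of the sst2 receptor, a main inhibitory somatostatin receptor of the forebrain, had 8.40 for NV, 7.20 for RS and 7.69 for RE. The difference of -1.20 between RS and NV was the largest fall of the 10 genes, and 2.39% of all genes were as far below 0. RE differed from RS by 0.49 and from NV by -0.71, which is below the threshold. Sst, Sstr2 and Sstr3 had the same order of pools, NV above RE above RS. The annotation of Sstr2 overlaps that of Slc39a11, a zinc transporter gene named here for this overlap, whose order differed, with 7.13 for NV, 7.71 for RS and 6.77 for RE.
Sstr4 encodes the sst4 receptor, which is abundant in hippocampal pyramidal cells of the mouse. It had 10.43 for NV, 11.36 for RS and 11.09 for RE. The difference of 0.92 between RS and NV, 1.90-fold, was below the threshold, and RE differed from RS by -0.27. Sstr3, whose product is placed in the primary cilium of neurons, had 7.65 for NV, 7.42 for RS and 7.54 for RE, a range of 0.23. Within the somatostatin receptors, then, Sstr2 and Sstr4 stood on opposite sides of NV in both restrained pools, and Sstr3 stayed within 0.23 of it.

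**Figure D2:**
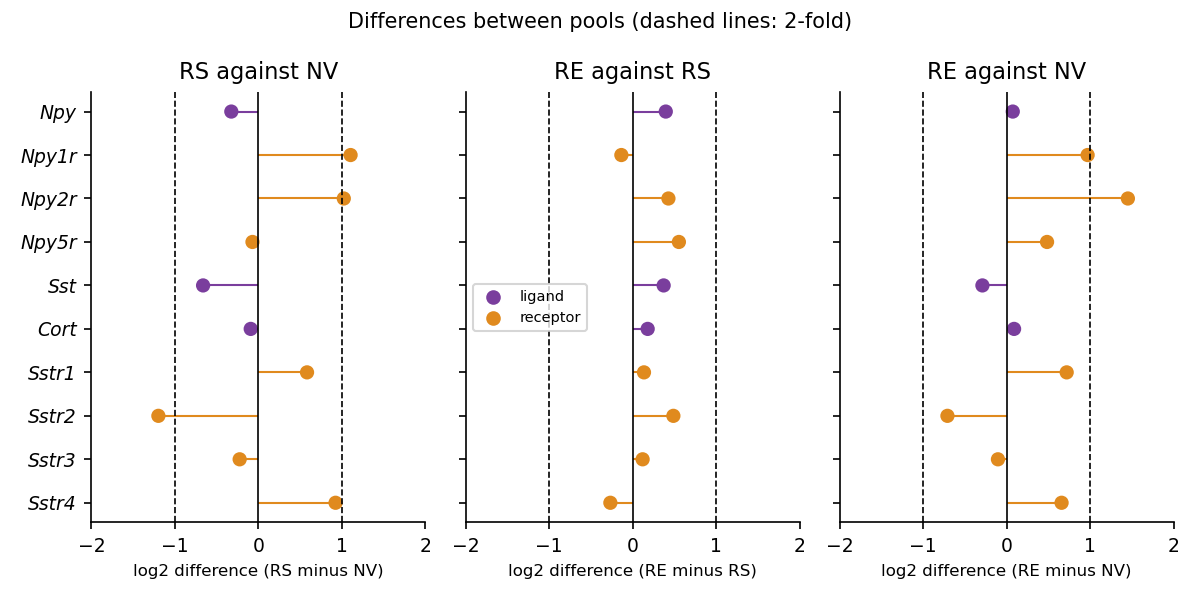
Log2 differences (horizontal axis) of the 10 genes (vertical axis) for RS versus NV, RE versus RS and RE versus NV, with ligands and receptors in different colours and dashed lines at the 2-fold threshold. Npy1r and Npy2r lie beyond the upper line and Sstr2 beyond the lower line in RS against NV, no gene lies beyond a line in RE against RS, and Npy2r alone does in RE against NV.

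Between RE and RS, which asks whether EVs of exercised donors differed in effect from those of sedentary donors, RE was above RS for 8 of the 10 genes, all 3 ligand genes among them, and below it for Npy1r and Sstr4. The differences ran from -0.27 for Sstr4 to 0.55 for Npy5r, and the median over the 10 genes was 0.28, against -0.07 over all genes. Sstr1, below the background level in every array, is among the 8, and the median over the other 9 genes was 0.37. Differences at least as high were found for 3.98% of all genes in the case of Npy5r, 5.54% for Sstr2, 7.42% for Npy2r, 8.46% for Npy and 9.53% for Sst. For Cort, Sstr1 and Sstr3 these shares were 21.9%, 25.9% and 27.5%. None of the 10 genes passed the threshold (0 of 10), and since only 1.16% of all genes did (0.441% higher and 0.723% lower), that count says little about them. Between RE and NV, 1 of the 10 genes was called, Npy2r, against 7.98% of all genes, or 2.87% higher and 5.12% lower. The median was 0.29 over the 10 genes and -0.06 over all genes. Npy1r, with 0.97, was just below the threshold, and 1.01 when each array was centred on its median. Each pool enters 2 of the 3 comparisons, so the values of a gene in these comparisons are not independent. Among all called genes the share that was higher in RE than in RS was 37.9% as deposited, 50.0% after centring, 54.4% after quantile normalization and 54.7% after removal of the trend. For RE against NV it was 35.9% as deposited and 48.6% after quantile normalization.

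Ligand and receptor genes were then set side by side by the difference of each between pools. In the NPY system, RS differed from NV by -0.33 for Npy, while the median of its 3 receptor genes was 1.02, and all 3 lay above the ligand. The ligand minus this median came to -1.35 (RS against NV), -0.03 (RE against RS) and -0.90 (RE against NV). The gap to NV was wider in RS than in RE. The median receptor gene was Npy2r for the differences RS minus NV and RE minus RS but Npy1r for RE minus NV, so the 3 values do not add up. In the somatostatin system, the median of the 3 receptor genes above the background level was -0.23 in RS against NV, with a range from -1.20 to 0.92, so no common direction of the receptors was seen. Sst minus this median came to -0.44, 0.25 and -0.19 in RS against NV, RE against RS and RE against NV. For Cort the same quantity was between 0.06 and 0.19 in the 3 comparisons.

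**Figure D3:**
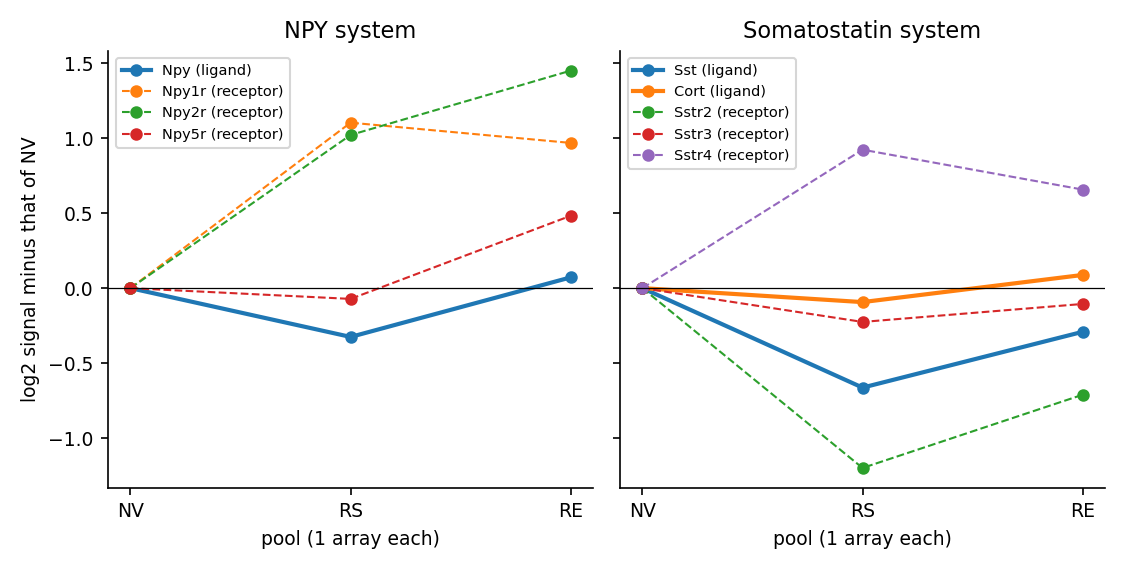
Log2 signal minus that of NV (vertical axis) in the NV, RS and RE pools (horizontal axis, 1 array each) for the genes above the background level, with ligands as solid and receptors as dashed lines that only join the values of a gene. The Npy line stays within 0.33 of NV while Npy1r and Npy2r lie 1.10 and 1.02 above NV in RS, and the receptors of somatostatin spread from -1.20 to 0.92 in RS.

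Further genes of the same peptide families were mostly below the background level. Of 12 listed, 12 were measured and 4 were above it in some array. Npy4r, the gene of the Y4 receptor that prefers pancreatic polypeptide, had 7.12 for NV, 6.03 for RS and 5.03 for RE. It was lower in RS than in NV, with -1.09, differed by -0.997 between RE and RS, just short of the threshold, and by -2.08 between RE and NV, with its RE value below the background level. Npff, which encodes the precursor of neuropeptide FF, had 12.07 for NV, 12.47 for RS and 12.31 for RE. The other 11 genes of the list apart from Npy4r were not called in any comparison. The medians of the list were -0.28 for RS against NV, -0.25 for RE against RS and -0.60 in RE against NV. Over all genes they were -0.01, -0.07 and -0.06. With only genes above the background level the list had -0.01, -0.52 and -0.92, over 4, 3 and 3 genes. The median signal of the chemosensory receptor genes was 4.52 for NV, 4.33 for RS and 4.24 for RE. Medians of a list mostly below background thus carry little information.

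The genes of the G protein and GIRK channel machinery that these receptors use were partly higher in RS than in NV. Of 20 listed, 18 were measured, 5 were higher and 0 lower, against 3.52% and 4.29% of all genes. The count was not in 1 direction under all scalings, since after quantile normalization, and likewise after removal of the trend, 3 were higher (Kcnj6, Kcnj3 and Adcy1) and 2 lower (Gng3 and Grk3, a G protein subunit and a receptor kinase). The list's median was -0.11, against -0.01 over all genes. Kcnj6, a GIRK channel subunit, had 9.47 for NV, 11.75 for RS and 11.41 for RE, so that RS exceeded NV by 2.27. The other GIRK subunit genes of the list, Kcnj3 and Kcnj9, differed by 1.24 and 1.03. As deposited, all 3 subunit genes were higher in RS, with Kcnj9 short of 2-fold after quantile normalization and after removal of the trend, and RE differed from RS by -0.33, -0.43 and 0.43 for Kcnj6, Kcnj3 and Kcnj9. Adcy1, a calcium-stimulated adenylyl cyclase, differed by 1.48 between RS and NV, and Rgs14, a regulator of G protein signaling known from CA2, by 1.06, a call that was lost under the same settings as that of Kcnj9. Gnao1, the G protein subunit that is most abundant in neurons, differed by 0.57 between RS and NV and by -0.49 between RE and RS. No gene of this list was called in RE against RS (0 of 18), and 3 were higher and 0 lower in RE against NV, where 2.87% and 5.12% of all genes were.
Of 14 listed genes of peptide processing and dense-core granules, 13 were measured, all above the background level in every array, and 1 was called in RS against NV (7.69%), close to the 7.8% of all genes. This was Erc2, a protein of the presynaptic active zone, with 14.45 for NV, 15.52 for RS and 15.08 for RE. Vgf, the precursor of several neuropeptides, had 9.58 for NV, 8.64 for RS and 8.98 for RE. After quantile normalization and after removal of the trend Erc2 was no longer called, and Vgf was called as lower instead. Cpe, the carboxypeptidase that trims peptide precursors, differed by -0.74 between RS and NV. Pcsk1, a convertase that cuts precursors, differed by 0.59 between RE and RS. The medians of this list were -0.13 for RS against NV and -0.07 for RE against RS.

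The interneurons that make these peptides were followed by a list of 18 genes, of which 17 were measured. It includes genes that mark all GABAergic cells, Gad2 and Slc32a1 among them. In RS against NV, 7 were lower and 0 higher, against 4.29% and 3.52% of all genes, and the list's median was -0.48. Gad2, an enzyme of GABA synthesis, had 12.93 for NV, 11.37 for RS and 11.53 for RE, and Slc32a1, the vesicular GABA transporter, had 11.49, 10.08 and 10.54 in the same order. Grin3a, an NMDA receptor subunit, differed by -1.70, and Tacr1, the substance P receptor, by -1.80 with an RS value below the background level. Lhx6, a transcription factor of interneurons from the medial ganglionic eminence, went the other way in RS against NV, with 0.68, and differed by -0.82 between RE and RS. In RS against NV, 5 of the 17 genes had positive differences, the largest 0.69 for Crhbp, and 12 had negative ones. Npy with -0.33, Sst with -0.66 and Cort with -0.09 had the sign of the list's median, and none of them was called. Of all genes 25.1%, 10.7% and 42.1% were at least as far below 0, so the shared sign says little for Npy and Cort. In RE against RS, 0 of the 17 genes were called, and the median was 0.15. Among 11 genes of interneurons that mostly lack both peptides, RS was below NV for 8 and above it for 3, with 6 past 2-fold below and 1 past it above, and the median was -1.01. The 1 above was Slc17a8, a vesicular glutamate transporter gene that was below the background level in all 3 arrays, with 4.56 for NV, 5.64 for RS and 5.41 for RE. Pvalb and Cck, which also lay above NV, were above the background level in all 3 arrays. They differed by 0.95 and 0.70 between RS and NV, short of 2-fold. Of the 6 genes past 2-fold below NV, Sncg and Crh were above the background level in NV alone.
Genes that mark regions and other cells also differed between RS and NV, and their counts are read against 3.52% of all genes higher and 4.29% lower. Some genes stand in more than 1 list, Calb2, Penk and Dcn among them, so the counts of the lists are not independent. Of 15 dentate granule cell genes 12 were higher and 0 lower, and the list had a median of 2.18 and a mean log2 signal of 8.38 for NV, 10.18 for RS and 9.72 for RE. All 15 were above the background level in some array, although Dsp, Tdo2 and Lct were below it in NV. Of 14 ventral hippocampus genes 10 lay below the lower threshold and 0 above the upper, and the list had a median of -1.69 and a mean of 10.15 for NV, 8.74 for RS and 9.40 for RE. In RE against RS 5 of these 14 were higher, where 0.441% of all genes were, among them Trhr and Oprm1, which the study itself chose on these arrays for that rise. Of 9 CA1 genes 3 were higher and 1 was lower in RS than in NV, and all 9 CA1 and all 8 CA3 genes were above the background level in some array. Among 15 thalamus and habenula genes, of which 9 were above the background level in some array, RS had higher values past 2-fold for 3 and lower ones for 4. The 3 higher ones, Prkcd, Ptpn3 and Plekhg1, differed by 1.98, 1.91 and 1.69 and were above the background level in all 3 arrays. The widest difference of these lists was here, with Tcf7l2, a transcription factor, at 12.89 for NV, 8.21 for RS and 8.54 for RE. Slc17a6, a vesicular glutamate transporter, stood at 12.00, 8.70 and 8.95 in the same order. Pou4f1, a transcription factor of the habenula, differed by -3.24 and was above the background level in NV alone. Of 13 dorsal midbrain genes 6 were lower and 0 higher, with -3.45 for Tfap2d and -3.23 for Tfap2b, both above the background level in NV alone, and the list's mean log2 signal was 6.24 for NV, 5.08 for RS and 5.06 for RE. Of 10 oligodendrocyte genes 5 were higher (2 after quantile normalization) and 0 lower, the median was 0.95, and Mobp and Mbp, genes of myelin proteins, differed by 1.36 and 1.17. Of 12 listed genes of the hypothalamus, a region with its own NPY neurons, 10 were measured and 1 was above the background level in some array. Agrp and Kiss1 were listed but not measured, and this count does not speak to the NPY neurons there. Dentate, ventral, midbrain and oligodendrocyte markers moved between NV and RS along with Npy1r, Npy2r and Sstr2, as did thalamic markers in both directions. The part of these markers in the differences of the 10 genes was not tested.

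**Figure D4:**
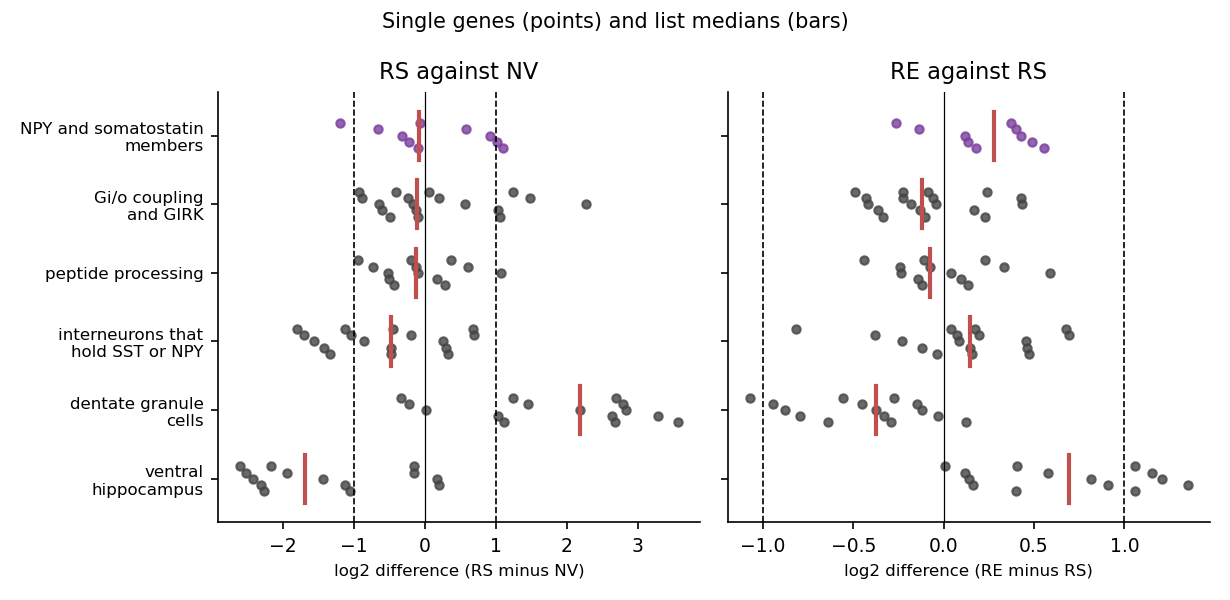
Log2 differences (horizontal axes, with a different range in each panel) of single genes as points and of list medians as bars for the 10 genes and 5 other lists (vertical axis), for RS versus NV and RE versus RS, with dashed lines at the 2-fold threshold. In RS against NV the dentate list has a median of 2.18 and the ventral list one of -1.69, while the 10 genes spread on both sides of 0. In RE against RS the 10 genes lie between -0.27 and 0.55.

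The genes whose pattern was most like that of Npy, Sst and Npy2r were found by the distance between their pairs of log2 differences, RS minus NV and RE minus RS, among 10212 genes above the background level in all 3 arrays. For Npy these were Stat3, Rnf208 and Pls1, at distances of 0.0114 to 0.0136. For Sst they were Slc22a8, Dipk1b and Dmpk, at 0.00923 to 0.0425. For Npy2r they were Kcnj9, Csf1 and Ppif, at 0.00953 to 0.0687, and Kcnj9 differed by 1.03 between RS and NV and by 0.43 between RE and RS. Within a distance of 0.1 there were 93 genes for Npy, 49 for Sst and 10 for Npy2r, so patterns such as that of Npy were common on these arrays and that of Npy2r was less so. Such counts depend on how large the differences of a gene are and add no evidence to those given above. With 3 arrays, such a likeness is only a description of these pools.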

How the data were processed

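RNA of 3 or 4 mice was pooled per group and hybridized to 1 array per pool. The authors deposited log2 signals of 22205 probe sets. RMA and Affymetrix Power Tools stand in the submitters' processing notes and Command Console in the methods, with versions not given in the sources used here. A rescaling of the signals ahead of the logarithm is not described, and 169 to 211 probe sets per array were above 16. Probe sets with 1 gene symbol numbered 19571, those with none here 2634. With several probe sets, that with the highest mean was used, which left 19504 genes. Gene identifiers updated 0 symbols. Called means a difference of 2-fold or more. There is no read depth, and no test was run with 1 array per group. The 10 genes and the 22 gene lists were chosen with earlier results of these data known. Named genes were the 10 genes, Slc39a11 and the 3 most alike genes for Npy, Sst and Npy2r. Per list described, they were up to 4 genes with the largest difference between RS and NV and up to 2 between RE and RS. These were taken among genes above the background level in the higher array. Some of the genes behind counts of 5 or fewer were also named, and others were not. Dsp, Tdo2, Lct, Pvalb, Cck, Crh and Crhbp were named after their values were seen. Agrp and Kiss1 were named as not measured. Alternatives were centring, quantile normalization, removal of the lowess trend (span 0.3), the mean of probe sets, a filter on the background level and a 1.5-fold threshold. Scripts were tested on simulated data. The tools were matplotlib 3.10.9, statsmodels 0.14.6, pandas 2.3.3, numpy 2.4.6 and python 3.11.15.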

Additional observations from a re-analysis of the deposited data

How the results depend on the processing

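The 3 calls among the 10 genes between RS and NV rest on small margins for Npy1r and Npy2r. The count was 3 as deposited, 1 after quantile normalization and 1 after removal of the lowess trend, where only Sstr2 passed 2-fold, and 5 at a 1.5-fold threshold. For RE against NV it was 1 as deposited, 2 when each array was centred on its median and 5 at 1.5-fold. For RE against RS it was 0 under every alternative run, 1.5-fold included. Of all 19504 genes, 2391 were higher and 2579 lower at 1.5-fold in RS against NV. Those counts were 675 and 1234 for RE against RS, and 2041 and 3123 for RE against NV. At 1.5-fold, the counts called for RS against NV, RE against RS and RE against NV were 3, 2 and 7 for the 12 further genes of the peptide families. For the 13 genes of peptide processing they were 4, 1 and 3. For the 18 coupling genes they were 9 for RS (5 higher, 4 lower) and 8 for RE (5 higher, 3 lower), each against NV. No called difference of the 10 genes changed sign. Sst minus its receptors went from -0.19 to as near 0 as -0.05 for RE against NV and from 0.25 to 0.46 for RE against RS, while the values for Npy moved by at most 0.03. For RS against NV the median of the further family genes went from -0.28 to -0.01 with only genes above background, and for RE against RS that of the processing genes went from -0.07 to 0.09 without the trend. The marker lists were run under the same alternatives after the data were seen. At 2-fold, the dentate, ventral and peptide interneuron counts for RS against NV stayed at 12, 10 and 7, while that of the oligodendrocyte genes fell from 5 to 2, and the median of the dorsal midbrain genes went from -0.74 to -0.62 after quantile normalization and to -2.0 with only genes above background. Sst differed between RE and RS by 0.37 as deposited and by up to 0.61 under the alternatives. Npy differed between RE and NV by 0.07 as deposited and by -0.01 to 0.12 under the alternatives. No paired analysis was possible because each group has 1 array, and for the same reason no replicate could be left out. Array signal limits what can be said of Sstr1, which was below background in all 3 arrays.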
